A study of Capra hircus with 9 samples.

Results

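The genes described here are the chemokine ligand and receptor genes of the goat mammary gland. They were chosen by symbol alone, as every gene of the deposited table whose symbol is that of a numbered CC or CXC ligand, CX3CL1, an XC ligand, a CC, CXC, CX3C or XC receptor, or a numbered atypical chemokine receptor (ACKR). This gave 42 of the 23499 genes of the table, comprising 23 ligands, 16 receptors and 3 atypical receptors. The study sequenced RNA of whole mammary gland from 9 healthy Laoshan dairy goats, 3 in late lactation (LL, 240 days postpartum), 3 in the dry period (DP, 300 days postpartum) and 3 in late gestation (LG, 140 days after mating). The animals were all in their 3rd parity, about 4 years old on average and kept on 1 farm under its standard feeding. Each goat gave 1 library, and the goats are named here by stage and number (LL1 to LL3, DP1 to DP3, LG1 to LG3). The labels name no treatment, and each stage is a different set of goats, so differences between stages are also differences between animals.

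Chemokines are small secreted or membrane-anchored proteins that guide leukocytes by binding G protein-coupled receptors on their surface. CXCL9, CXCL10 and CXCL11 draw T cells through CXCR3, CXCL8 draws neutrophils through CXCR1 and CXCR2, CXCL12 retains many cell types through CXCR4, and CCL19, CCL21 and CXCL13 organise lymphoid tissue through CCR7 and CXCR5. Atypical receptors bind chemokines without G protein signalling and move or remove them. In the mammary gland, CCL28 of the secretory epithelium is known for drawing IgA-producing plasma cells through CCR10.

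The values are FPKM (fragments per kilobase of gene, scaled to the fragments of the library), which can be compared between genes because they are per length. Summed FPKM was 940676 to 1157015 in LL, 601250 to 616268 in DP, against 733277 to 768157 in LG, and the depth behind these values is unknown. For tests, each library was divided by a median-ratio scaling factor (0.498 to 0.605 in LL, 1.44 to 1.53 in DP, against 1.2 to 1.31 in LG), so a gene with equal deposited FPKM in LL and DP is lower in DP after scaling. Fold changes are on the log2(scaled FPKM + 1) scale, which understates changes of weakly expressed genes. Without scaling, the median log2 fold change of all 14701 tested genes shifted to 1.09 for DP against LL, to 0.93 for LG against LL, and to -0.18 for LG against DP. A gene was called higher or lower where its adjusted p was under 0.05 and its log2 fold change was 1 or more in either direction, and "rose" and "fell" are used only of such genes. Casein genes and LALBA summed to 303691 to 407649 FPKM in LL, 104 to 137 in DP, against 8656 to 12428 in LG, without overlap between stages. CSN1S1, CSN1S2 and CSN3 differed only by small amounts in each library (90859.5, 90861.2 and 90873.6 FPKM in LL1, 27.6, 29.36 and 41.7 in DP1). They may not be separate measurements, so this sum and the summed FPKM may count the same signal more than once. In bulk tissue, fewer cells of a type and less RNA per cell cannot be told apart.

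Of the 42 chemokine genes, 31 passed the filter of at least 0.5 FPKM in at least 3 libraries and 20 of these were called in at least 1 of the 3 comparisons. In DP against LL, 9 of the 31 rose (29.0%, against 13.8% of all tested genes) and 4 fell (12.9%, against 8.79%), with a median log2 fold change of 0.53. In LG against LL, 3 rose (9.68%, against 10.7%) and 6 fell (19.4%, against 6.61%), with a median of -0.52. In LG against DP, 1 rose (3.23%, against 6.37%) and 9 fell (29.0%, against 6.88%), with a median of -0.55. At an adjusted p under 0.05 with a change of any size, 17 of the 31 differed in DP against LL (56.9% of all tested genes did), 14 differed in LG against LL (50.2%) and 13 of the 31 differed in LG against DP (34.8%). The medians over all tested genes were 0.004, 0.019 and 0.008. The genes that passed are not all 42, and CXCL13, CXCR3 and ACKR4 reached 0.5 FPKM in the 3 DP libraries alone. Without scaling, 18 chemokine genes were called higher and 1 lower in DP against LL, where 54.3% of all genes were called higher, so directions against LL are relative to the shift of all genes. DP against LL and LG against DP share the DP libraries, and LG against LL shares libraries with both.

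**Figure D1:**
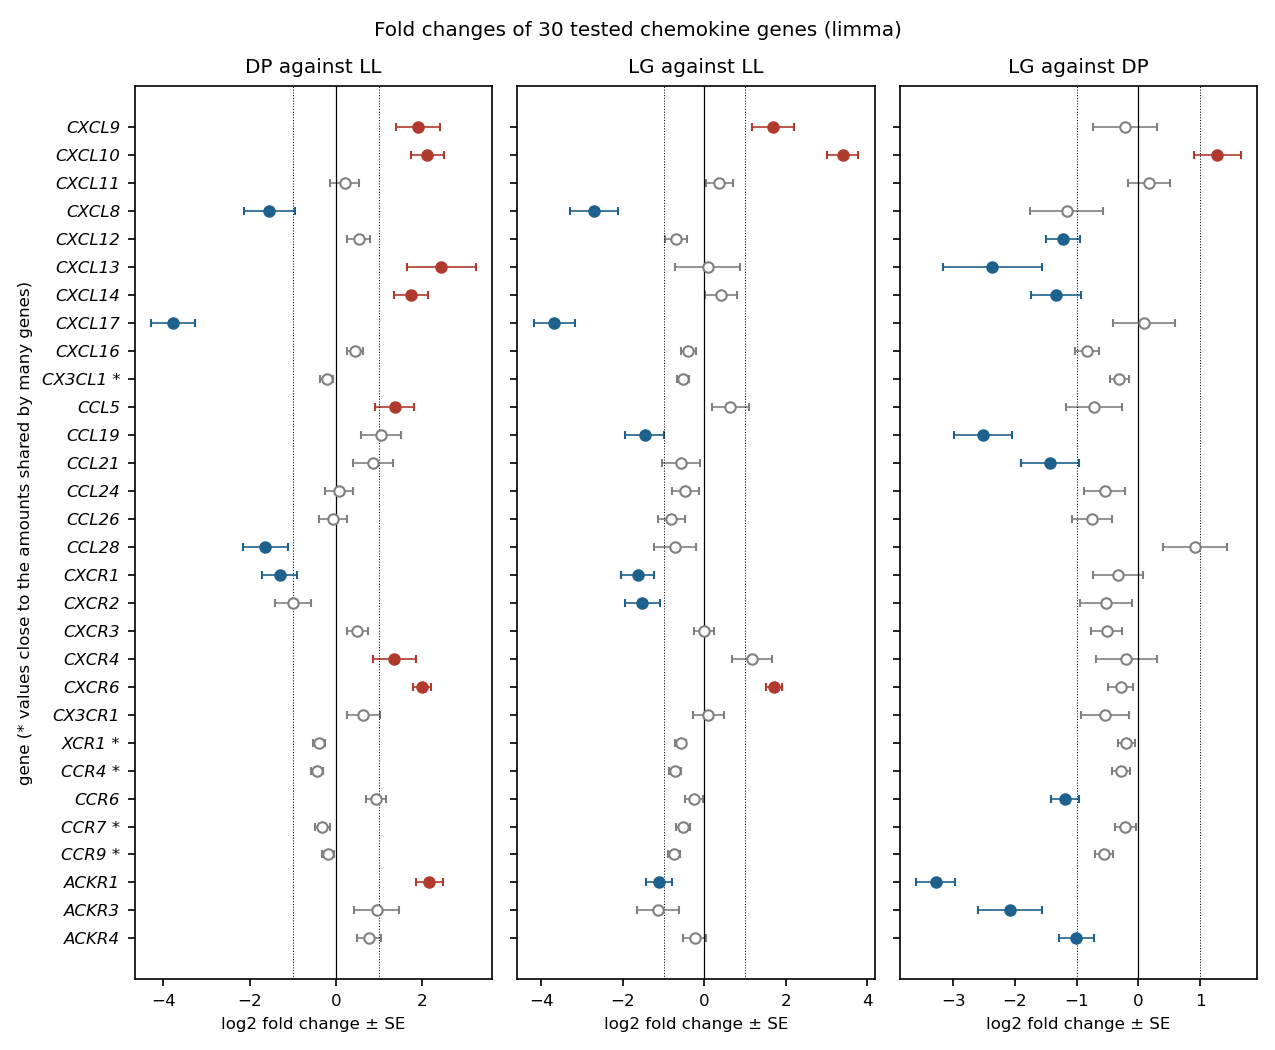
Log2 fold change ± SE from limma for 30 of the 31 tested chemokine genes in DP against LL, LG against LL and LG against DP, with filled red points for genes called higher, filled blue points for genes called lower and open points for the rest. Dotted lines mark a log2 fold change of 1 in either direction, and in LG against DP CXCL10 is called higher and 9 genes are called lower.

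CXCL9 and CXCL10, CXCR3 ligands that interferon-gamma induces and that draw activated T cells, were near 0 in LL and rose in both non-lactating stages. CXCL10 (gene ID 100860873, chromosome 6, 91399174 to 91401532) had 0.12, 0.14 and 0.11 FPKM in LL, 10.4, 3.23 and 7.13 in DP, with 12.8, 26.6 and 9.45 in LG. No LL library reached any DP library, and after scaling the 3 LG libraries all lay above the 3 DP libraries. CXCL10 rose in DP against LL (log2 fold change 2.12, SE 0.38, adjusted p = 0.00132). It also rose in LG against LL (3.40, SE 0.38, adjusted p = 0.000108) and, as the only chemokine gene called higher there, in LG against DP (1.28, SE 0.38, adjusted p = 0.0264). The last call was lost without DP2 (adjusted p = 0.0829), LG1 (0.0551) or LG2 (0.0753), while the others held without each library.

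CXCL9 had 0.08, 0.09 and 0.07 FPKM in LL, 10.2, 4.09 and 2.46 in DP, with 2.04, 9.90 and 1.43 in LG. It rose in DP against LL (1.91, SE 0.52, adjusted p = 0.0112) and in LG against LL (1.69, SE 0.52, adjusted p = 0.0212), the latter not without LL3 (adjusted p = 0.0530). The DP and LG values overlapped, with DP1 and LG2 highest. CXCL11, the other CXCR3 ligand, stood at 0.12 to 0.51 FPKM in LL, 0.56 to 2.22 in DP, against 0.47 to 2.92 in LG, again highest in DP1 and LG2. After scaling LL2 (0.92) exceeded all but DP1 and LG2, and CXCL11 was called in no comparison. These 3 genes lie within 46.8 kb on chromosome 6, and their receptor CXCR3 (0.09 to 0.19 FPKM in LL, 0.50 to 2.64 in DP, 0.17 to 0.48 in LG) was called in none.

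CCL5, which draws T cells and monocytes, had 2.90, 1.42 and 2.05 FPKM in LL, 34.1, 13.9 and 9.11 in DP, with 8.36, 12.8 and 4.51 in LG. CCL5 rose in DP against LL (1.36, SE 0.46, adjusted p = 0.0282), with DP1 far above the other goats, and the call was lost without DP1 (adjusted p = 0.08865), LL2 (0.0986) or LL3 (0.0758).

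CXCR6, a receptor of tissue-resident T and natural killer T cells, had 0.18, 0.09 and 0.15 FPKM in LL, 9.41, 4.60 and 4.64 in DP, but 3.29, 4.51 and 3.93 in LG. Every DP and LG library lay above every LL library, and DP and LG overlapped after scaling. It rose in DP against LL (2.0, SE 0.20, adjusted p = 4.49e-05) and in LG against LL (1.71, SE 0.20, adjusted p = 0.000154) and kept both calls without each library. Its ligand CXCL16, a membrane-anchored chemokine that also takes up oxidised lipoprotein, was called in no comparison. It had 3.32 to 4.96 FPKM in LL and 12.3 to 16.9 in DP as deposited, and after scaling 5.48 to 9.96 in LL, 8.55 to 11.0 in DP, against 4.81 to 5.63 in LG. Its only adjusted p under 0.05 was for LG against DP at a log2 fold change of -0.83 (SE 0.19, adjusted p = 0.00871). Without scaling CXCL16 was called higher in DP against LL (1.68, adjusted p = 1.14e-05) and lower in LG against DP (-1.07), and its changes were not tested against those of CXCR6.

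CXCL17, CCL28 and CXCL8 with its receptors had their highest scaled mean in LL. CXCL17 (gene ID 102181231, chromosome 18, 52529011 to 52535683), a chemokine-like protein of mucosal epithelia, had 3.50, 16.8 and 25.6 FPKM in LL, 0.67, 1.33 and 0.76 in DP, with 0.51, 1.41 and 0.88 in LG. Even the lowest goat in LL exceeded all 6 others. It fell in DP against LL (-3.78, SE 0.51, adjusted p = 0.000239) and in LG against LL (-3.69, SE 0.51, adjusted p = 0.000373), both also without scaling and without each library, and did not differ detectably between LG and DP (0.09, SE 0.51, adjusted p = 0.908).

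CCL28 had 11.5, 18.9 and 6.83 FPKM in LL, 14.8, 7.37 and 6.22 in DP, with 17.9, 27.6 and 6.98 in LG. As deposited the stages overlapped. After scaling it had 23.1, 34.2 and 11.3 in LL, 9.70, 5.11 and 4.32 in DP, with 15.0, 22.4 and 5.31 in LG, and it fell in DP against LL (-1.63, SE 0.51, adjusted p = 0.0219). Without scaling its log2 fold change was -0.34 and was not called, and the call was also lost without LL1, LL2, DP2 or DP3 (adjusted p from 0.0574 to 0.0786). Its receptor CCR10 stood at 0.13 to 0.41 FPKM over the 9 libraries and was not tested. JCHAIN, the joining chain of IgA and a plasma cell marker, had 414, 272 and 114 FPKM in LL, 161, 195 and 54.1 in DP, but 26.7, 12.5 and 21.2 in LG, and it fell in DP against LL (-2.37, adjusted p = 0.00749). JCHAIN also fell in LG against LL (-4.70, adjusted p = 0.000216) and in LG against DP (-2.33, adjusted p = 0.0136). CCL28 was called in neither, with -0.71 (adjusted p = 0.275) in LG against LL and 0.92 (adjusted p = 0.191) in LG against DP. The part of JCHAIN-bearing cells in the result for CCL28 was not tested.

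CXCL8, the main neutrophil attractant, had 10.4, 1.88 and 3.48 FPKM in LL, 0.87, 2.52 and 7.34 in DP, but 0.64, 0.25 and 0.35 in LG. LG lay below every other library, while LL and DP overlapped. It fell in LG against LL (-2.71, SE 0.59, adjusted p = 0.00439), also without each library. In DP against LL it was called lower (-1.54, SE 0.59, adjusted p = 0.0475), but without scaling the value was -0.48 and not called, and 7 of the 9 libraries were each needed for the call, all except LL2 and DP3 (adjusted p up to 0.156, without DP1).

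The CXCL8 receptors lie side by side within 42.8 kb on chromosome 2, and how reads shared by these similar genes were counted is not described. CXCR1 had 3.10, 0.54 and 0.78 FPKM in LL, 0.31, 0.40 and 0.59 in DP, but 0, 0.03 and 0.08 in LG, and CXCR2 had 3.58, 0.56 and 1.19 in LL, 1.99, 0.70 and 1.18 in DP, but 0.46, 0.33 and 0.23 in LG. Both were highest in LL1, as was CXCL8, and lowest in LG. CXCR1 fell in LG against LL (-1.64, SE 0.40, adjusted p = 0.00774) and in DP against LL (-1.31, SE 0.40, adjusted p = 0.0197), the latter to -0.76 without LL1, to -0.65 without scaling, and with an adjusted p of 0.0505 without DP1. CXCR2 fell in LG against LL (-1.52, SE 0.42, adjusted p = 0.0139), to -0.99 without LL1 and -0.90 without scaling, and was not called in DP against LL (-0.99, SE 0.42, adjusted p = 0.0692). Of 4 neutrophil markers tested, 0 were called in DP against LL (median log2 fold change 0.57). In LG against LL S100A9 fell (-1.35), S100A8 had -1.34 (adjusted p = 0.0759) and CSF3R rose (1.88), with a median of -0.64. After scaling the neutrophil markers summed to 7.54 to 16.4 in LL, 9.80 to 37.8 in DP, against 5.27 to 11.97 in LG. Their part in these results was not tested.

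**Figure D2:**
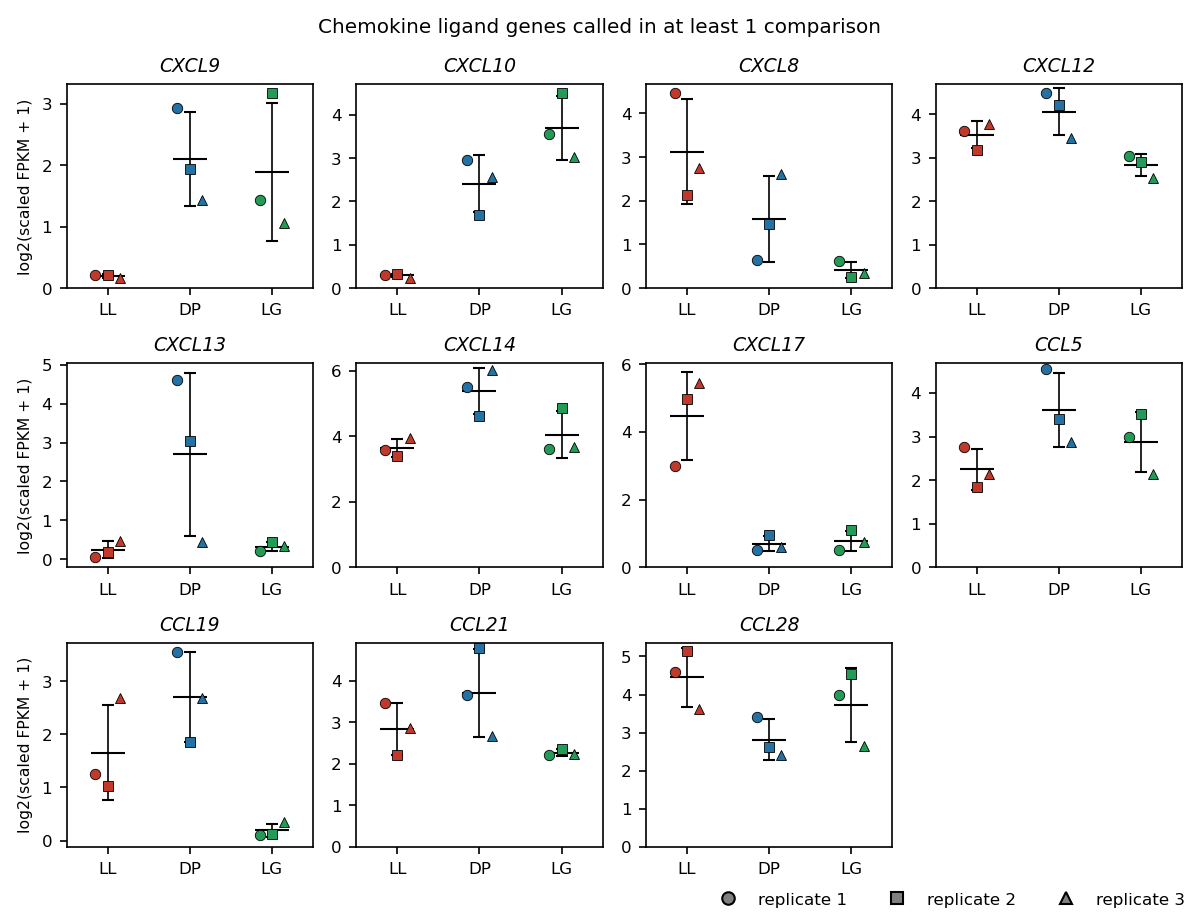
Log2(scaled FPKM + 1) of the 11 ligand genes called in at least 1 comparison, 1 point per goat with the marker shape giving the replicate number, and mean ± SD of the 3 goats of each stage. CXCL9 and CXCL10 are near 0 in all LL goats, CXCL17 is highest in the LL goats, and CXCL13 is high in DP1 and DP2 but not in DP3.

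CXCL12, a stromal ligand of CXCR4 that ACKR3 also binds, had 5.63, 4.47 and 7.69 FPKM in LL, 32.7, 25.4 and 14.4 in DP, but 8.70, 8.01 and 6.34 in LG. After scaling LG lay below both other stages. It fell in LG against DP (-1.22, SE 0.27, adjusted p = 0.00708), to -0.999 and just short of the threshold without DP1, and was not called in DP against LL (0.53, SE 0.27, adjusted p = 0.119). CXCR4 had 3.20, 3.45 and 4.31 FPKM in LL, 43.7, 22.6 and 19.9 in DP, with 50.7, 12.6 and 11.9 in LG. Each DP and LG library exceeded each LL library, with DP1 and LG1 highest. It rose in DP against LL (1.35, SE 0.49, adjusted p = 0.0395), a call lost without any 1 of the LL libraries, DP1 or DP2 (adjusted p from 0.0596 to 0.1245), and was not called in LG against LL (1.16, SE 0.49, adjusted p = 0.0756).

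CXCL14, a CXC ligand of epithelium and stroma, had 5.52, 5.28 and 8.69 FPKM in LL, 68.5, 34.0 and 91.6 in DP, with 13.6, 35.0 and 15.3 in LG. All DP libraries exceeded all LL libraries, while after scaling LG2 (28.3) lay above DP2 (23.6). CXCL14 rose in DP against LL (1.74, SE 0.40, adjusted p = 0.00523), also without each library. In LG against DP it fell (-1.33, SE 0.40, adjusted p = 0.0291), a call lost without DP1, DP3, LG1 or LG3 (adjusted p from 0.0702 to 0.1005). Of 7 fibroblast markers, 6 were called higher in DP against LL and 3 lower in LG against DP. Their scaled sum was 218 to 332 in LL, 518 to 2415 in DP, against 527 to 962 in LG. CXCL12 did not follow this sum throughout. In DP3, which had the highest sum, scaled CXCL12 was the lowest of DP (9.99), while CXCL14 was the highest (63.6). Scaled CXCL12 was 4.82 to 7.26 in LG, below its 8.08 to 12.7 in LL, where the sum was lowest. The part of the fibroblast markers in the results for CXCL12 and CXCL14 was not tested.

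CCL19, CCL21 and CXCL13, the ligands of lymphoid tissue, were each called lower in LG against DP. CCL19, which draws T cells and dendritic cells through CCR7, had 0.69, 0.58 and 3.27 FPKM in LL, 16.4, 3.80 and 7.80 in DP, but 0.09, 0.11 and 0.35 in LG. The LG libraries lay below all others, and LL3 overlapped DP after scaling. CCL19 fell in LG against DP (-2.51, SE 0.47, adjusted p = 0.00312), also without each library, and in LG against LL (-1.47, SE 0.47, adjusted p = 0.0263), a call lost without LL3 or any 1 LG library (adjusted p from 0.0539 to 0.0759) and without scaling (-0.93). In DP against LL it was not called (1.04, SE 0.47, adjusted p = 0.0828), though it was without LL3 (1.57, adjusted p = 0.0129).

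CCL21, the other CCR7 ligand, lies with CCL19 and CCL27 within 44.4 kb on chromosome 8. It had 4.97, 2.0 and 3.78 FPKM in LL, 17.7, 38.4 and 7.69 in DP, but 4.34, 5.10 and 4.82 in LG. DP2 was highest, and after scaling DP3 lay among the LL libraries. CCL21 fell in LG against DP (-1.44, SE 0.47, adjusted p = 0.0394), a call lost without LL3, DP1, DP2 or any 1 LG library (adjusted p from 0.0567 to 0.105). Lymphatic markers had scaled sums of 11.97 to 12.9 in LL, 11.6 to 33.0 in DP, against 4.78 to 5.91 in LG, with 3 of 4 called lower in LG against DP, and their part in this result was not tested.

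CXCL13, the B cell attractant of lymphoid follicles, had 0.02, 0.08 and 0.24 FPKM in LL, 35.7, 10.4 and 0.51 in DP, but 0.18, 0.43 and 0.36 in LG. It was high in DP1 and DP2, whereas DP3 after scaling (0.35) lay below LL3 (0.40). It was called higher in DP against LL (2.45, SE 0.80, adjusted p = 0.0253) and lower in LG against DP (-2.36, SE 0.80, adjusted p = 0.0441). Without any 1 DP library it no longer passed the filter, the first call was lost without LL1 or LL2 (adjusted p = 0.0646 and 0.0625), and the second was lost without any 1 LL or LG library (adjusted p from 0.0596 to 0.1055). Its receptor CXCR5 reached 1.18 FPKM in DP1 and 0 to 0.15 in the other 8 libraries, and was not tested.

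CCR6, the CCL20 receptor of B cells and some T cells, had 0.42, 0.26 and 0.36 FPKM in LL, 5.04, 1.62 and 3.24 in DP, but 0.51, 0.43 and 0.41 in LG. Every DP library lay above every other library. It fell in LG against DP (-1.19, SE 0.23, adjusted p = 0.00347), to -0.92 without DP1, and in DP against LL its adjusted p was 0.00693 at a log2 fold change of 0.93 (SE 0.23), below the threshold. CCL20 ranged from 0 to 0.95 FPKM, highest in DP1, and was not tested.

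**Figure D3:**
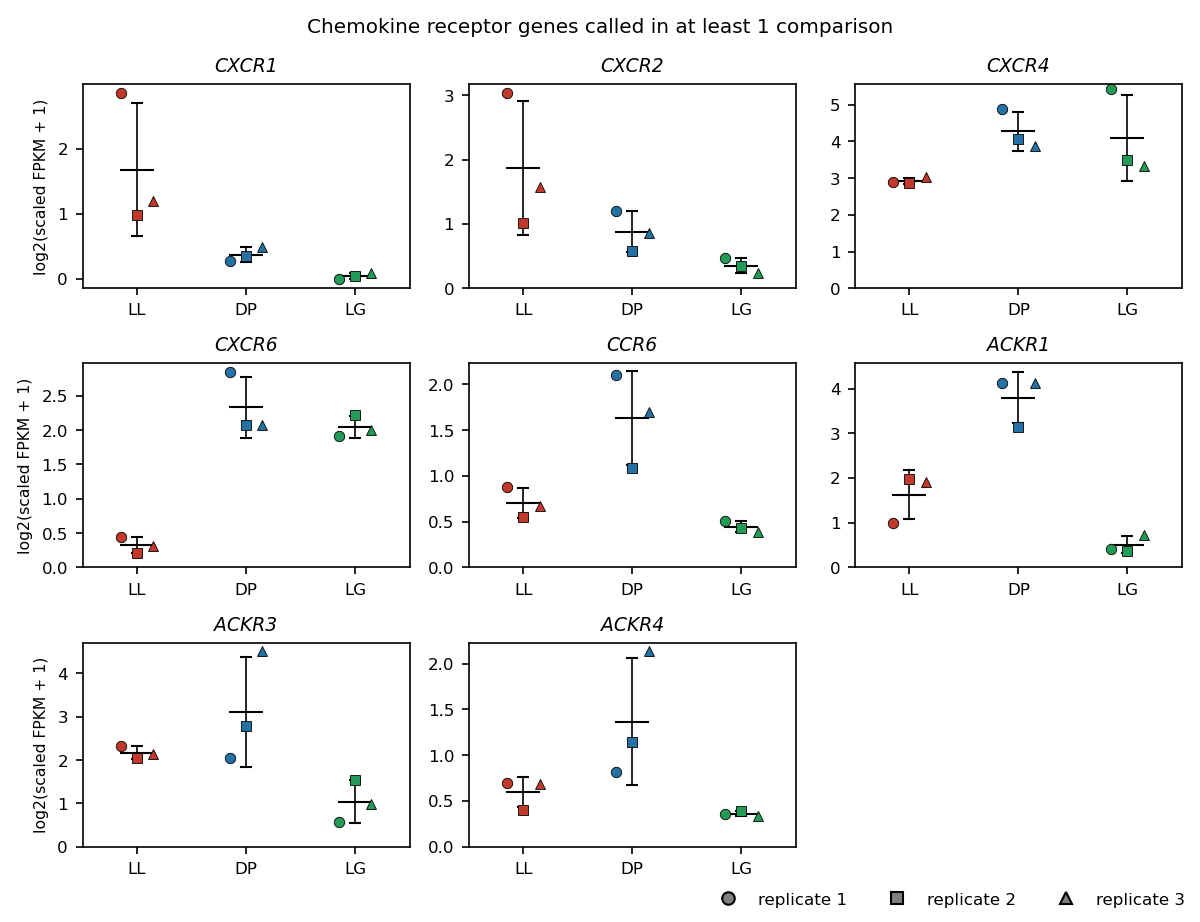
Log2(scaled FPKM + 1) of 5 receptor and 3 atypical receptor genes called in at least 1 comparison, 1 point per goat with the marker shape giving the replicate number, and mean ± SD of the 3 goats of each stage. CXCR6 is low in all LL goats, CXCR1 and CXCR2 are highest in LL1, and ACKR1 is highest in the DP goats.

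All 3 atypical receptors fell in LG against DP. ACKR1 (gene ID 102169438, chromosome 3, 109390124 to 109392704), which binds many inflammatory chemokines on venules and red cells, had 0.49, 1.62 and 1.67 FPKM in LL, 25.0, 11.2 and 23.6 in DP, but 0.40, 0.37 and 0.86 in LG. After scaling the stages did not overlap, with DP highest and LG lowest. It rose in DP against LL (2.17, SE 0.32, adjusted p = 0.000403) and fell in LG against DP (-3.28, SE 0.32, adjusted p = 0.00013), both without each library too. In LG against LL it fell (-1.12, SE 0.32, adjusted p = 0.0154), but not without LL2 (adjusted p = 0.0539), LL3 (0.0535) or scaling (-0.52). Endothelial markers, of which 0 of 5 were called in DP against LL and 1 of 5 was lower in LG against DP, had scaled sums of 93.2 to 125 in LL, 112 to 160 in DP, against 58.1 to 79.9 in LG.

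ACKR3, a scavenger of CXCL12, had 2.0, 1.72 and 2.05 FPKM in LL, 4.80, 8.42 and 31.4 in DP, but 0.58, 2.38 and 1.29 in LG. DP3 stood far above the other DP goats, and after scaling DP1 (3.14) lay among the LL libraries (3.11 to 4.02). It fell in LG against DP (-2.08, SE 0.52, adjusted p = 0.0126), also without each library, and was not called in DP against LL (0.95, SE 0.52, adjusted p = 0.142) or in LG against LL (-1.13, SE 0.52, adjusted p = 0.0951). It was called higher in DP against LL without DP1 (1.47, adjusted p = 0.0239) and without scaling (2.05), and lower in LG against LL without DP1, without DP3, with a pseudocount of 0.1, with only those 2 stages fitted and with the shared amounts described below subtracted (adjusted p from 0.00382 to 0.0484). ACKR4, a scavenger of CCL19 and CCL21, had 0.31, 0.18 and 0.37 FPKM in LL, 1.16, 1.75 and 4.90 in DP, but 0.34, 0.38 and 0.34 in LG, again highest in DP3. It fell in LG against DP (-1.01, SE 0.29, adjusted p = 0.0222), a call lost without any 1 LG library (adjusted p from 0.0521 to 0.0604), and it did not pass the filter without any 1 DP library. COL1A1, a fibroblast collagen, was also highest in DP3 (475 FPKM, against 54.5 in DP1 and 127 in DP2), and its part in these results was not tested.

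CCR4, CCR7, CCR9, XCR1 and CX3CL1 were measured at values that many genes of the table share. In each LL library few genes lay just below a certain FPKM and many just above it, so that in LL1 81 genes had 0.7 to 0.9 FPKM and 1068 had 1.0 to 1.2, and in LL3 220 had 1.2 to 1.4 and 1208 had 1.6 to 1.8. These shared amounts were 1.0, 1.3 and 1.5 FPKM in LL1 to LL3. The amounts used for DP1 to DP3 were 1.0, 1.5 and 1.5 FPKM, and no such step stood there. In DP1 93 genes had 0.9 to 1.0 FPKM and 103 had 1.0 to 1.1. Gene numbers rose at higher values, in DP1 from 87 at 1.4 to 1.5 FPKM to 161 at 1.5 to 1.6. Between 1.9 to 2.0 and 2.0 to 2.1 FPKM they rose from 108 to 204 in DP2 and from 118 to 210 in DP3. The amounts subtracted in DP may thus be too low, which would raise the subtracted DP values, so the subtraction is less well founded there. In all, 1571 genes, these 5 among them, reached the amounts in all 9 libraries and exceeded them in every LL library by less than 0.5 FPKM. CCR7, the receptor of naive T cells and dendritic cells, exceeded them by 0.09, 0.15 and 0.20 FPKM, and XCR1, of cross-presenting dendritic cells, by 0.17, 0 and 0.12. Their log2 fold changes in DP against LL were -0.44 to -0.18 in the fit as described, and 0.21 to 0.63 when the shared amounts were first subtracted from every gene whose 9 values all reached them, a setting chosen after the data were seen. In LG against LL the 5 genes had -0.74 to -0.52 as described, and -0.28 to 0.14 after subtraction. In LG against DP they were below 0 in both fits (-0.56 to -0.19, and -0.83 to -0.29 after subtraction), and none was called in either. Since values against LL changed sign and the amounts in DP and LG are uncertain, no direction is given for these 5 genes. The subtraction also ended the call of CXCR4 (adjusted p = 0.0544) in DP against LL and those of CCL21 (adjusted p = 0.0613) and ACKR4 (-0.92) in LG against DP, and it added CXCR2 as lower in DP against LL (-1.29) and ACKR3 as lower in LG against LL (-1.44). What the shared amounts come from was not tested.

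**Figure D4:**
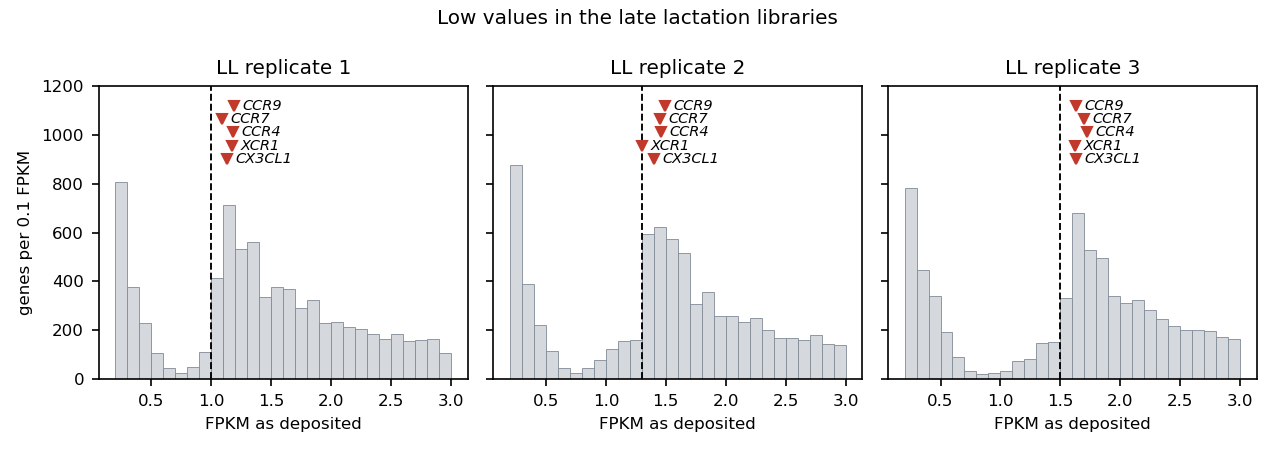
Number of genes per 0.1 FPKM between 0.2 and 3.0 FPKM in each LL library, with the amount shared by many genes as a dashed line (1.0, 1.3 and 1.5 FPKM) and the values of 5 chemokine genes as red triangles. All 5 genes lie within 0.22 FPKM above the line in each library.

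CCL24, CCL26 and CX3CR1 were also tested and called in no comparison. CCL26 (2.08 to 6.63 FPKM in LL, 8.65 to 13.5 in DP, 3.18 to 7.07 in LG) and CCL24 (0 to 2.02 FPKM over all libraries), the eosinophil attractants, had log2 fold changes of -0.06 and 0.08 in DP against LL, and without scaling CCL26 turned to a call of higher (1.14, adjusted p = 0.0090). CX3CR1, the fractalkine receptor of monocytes, had 7.19 FPKM in DP1 and 0.32 to 1.84 in the others, and a log2 fold change of 0.63 (SE 0.38, adjusted p = 0.181) in DP against LL. The 11 genes that did not pass the filter were CCL1, CCL16, CCL17, CCL20, CCL22, CCL25, CCL27, CCR3, CCR8, CCR10 and CXCR5. CCL17, a CCR4 ligand, was listed at 0 in all 9 libraries. CCL16 reached 1.19 FPKM in DP3 and CCR8, of regulatory and helper T cells, 1.06 in DP2, and the others outside CXCR5 and CCL20 stayed at or below 0.47. For the mucosal ligands CCL25 and CCL27 the deposited level was 0 in 4 of the 6 LL values and 0.20 to 0.47 in DP and LG. After scaling, CCL25 in LL1 (0.22) lay above all DP libraries (0.14 to 0.18). Scaled CCL27 in LL2 (0.22) lay above DP2 (0.19) and DP3 (0.18).

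As a sum over the 23 ligands, scaled FPKM was 115 ± 5.26 in LL, 144 ± 33.4 in DP, against 79.4 ± 33.1 in LG (each with its SD, n = 3). CXCL17 and CCL28 led this sum in LL with 23.0% and 19.9%, CXCL14 and CXCL12 in DP with 30.5% and 11.3%, and CXCL14, CCL28 and CXCL10 in LG with 21.5%, 17.9% and 16.5%. The 16 receptors summed to 28.0 ± 6.86 in LL, 44.5 ± 16.8 in DP, against 33.9 ± 19.1 in LG, with CXCR4 first in each stage (23.5%, 43.5% and 60.6%). The 3 atypical receptors summed to 6.25 ± 0.573 in LL, 25.6 ± 14.2 in DP, against 1.84 ± 0.719 in LG, without overlap between stages. The receptor sum includes CCR4, CCR7, CCR9 and XCR1, and the ligand sum CX3CL1, all with values near the shared amounts. No test was made on these sums.

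Markers of leukocytes moved with many of these genes. T cell markers were called higher for 6 of 7 in DP against LL and 4 of 7 in LG against LL, and their scaled sum was 6.77 to 6.95 in LL, 21.3 to 68.2 in DP, against 23.6 to 40.7 in LG, highest in DP1. Macrophage and dendritic markers were called higher for 6 of 9 in DP against LL and lower for 8 of 9 in LG against DP, with scaled sums of 87.5 to 121, 221 to 283 and 98.0 to 111, so that LL and LG overlapped. PTPRC, carried by all leukocytes, had 2.96 to 4.13 FPKM in LL, 19.0 to 56 in DP, against 8.42 to 12.9 in LG, and after scaling it rose in DP against LL (1.58) but was not called in LG against LL (0.34, adjusted p = 0.398). Of the B lineage genes, JCHAIN, the only one tested, was highest in LL as given above, whereas MS4A1, CD79B and PAX5 were highest in DP1. MS4A1 had 7.68 FPKM there and at most 0.16 in the other libraries, and PAX5 1.86 against at most 0.05 and 0 in all LL libraries. DP1 was also the highest library for CXCL13, CXCR5, CCR6, CCL19, CXCR3, CX3CR1 and CCL5, and for the adipocyte marker ADIPOQ (19.3 FPKM, against at most 1.72). The part of these cell types in the chemokine results was not tested. Without DP1, CXCL10 (1.8), CXCL9 (1.45), CXCR6 (1.70), ACKR1 (1.99) and CXCL14 (1.67) were still called higher in DP against LL, and the number called lower in LG against DP went from 9 to 3.

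**Figure D5:**
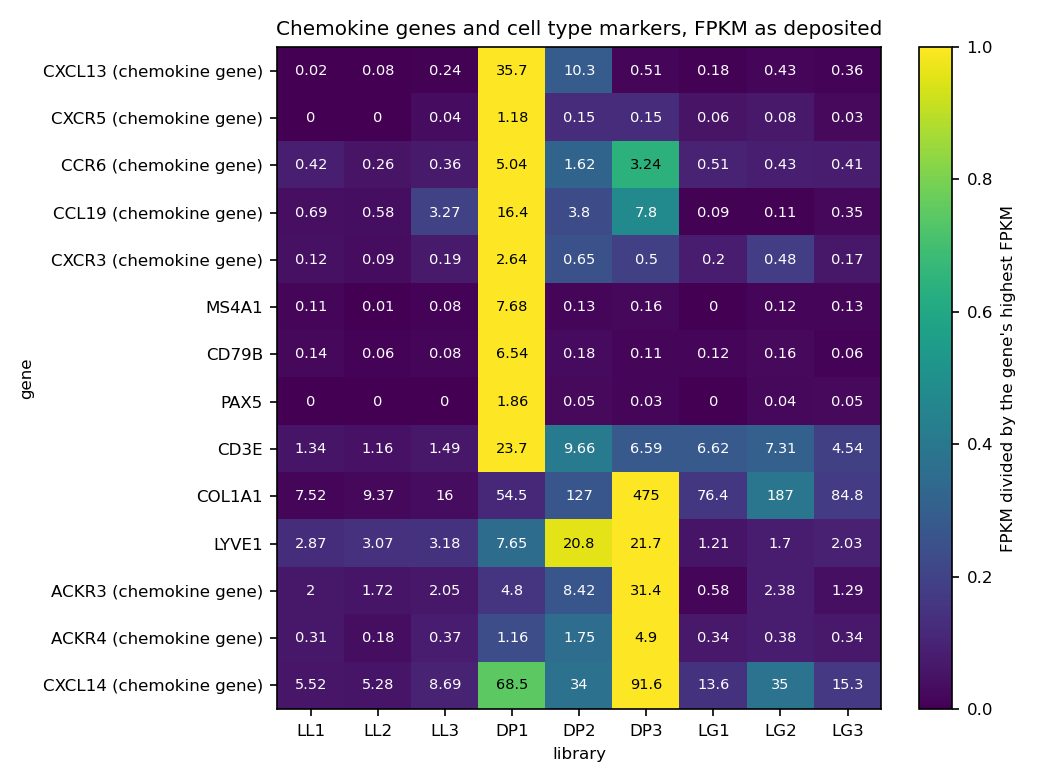
FPKM as deposited in each of the 9 libraries for 8 chemokine genes and 6 marker genes of B cells (MS4A1, CD79B, PAX5), T cells (CD3E), fibroblasts (COL1A1) and lymphatic vessels (LYVE1), with the colour giving each value divided by the highest of its gene. DP1 is highest for CXCL13, CXCR5, CCR6, CCL19, CXCR3 and the B and T cell markers, and DP3 for COL1A1, LYVE1, ACKR3, ACKR4 and CXCL14. LYVE1 is nearly as high in DP2 (20.78 FPKM, against 21.7 in DP3). Of the lymphatic markers not drawn, FLT4 and PDPN are highest in DP2 and PROX1 in LL3.

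Of 56 genes for chemokine signal transduction and regulation, which include G protein subunits, kinases, RAC and DOCK proteins and CMTM and RGS regulators, 54 were tested. In DP against LL 9 were higher and 3 lower (16.7% and 5.56%, against 13.8% and 8.79% of all tested genes; median log2 fold change 0.01). In LG against LL 5 were higher and 5 lower (9.26% each, against 10.7% and 6.61%; median -0.08), and in LG against DP 3 and 5 (5.56% and 9.26%, against 6.37% and 6.88%; median -0.37). RAC2, a small GTPase of blood cells, rose in DP against LL (1.90, SE 0.34, adjusted p = 0.00142) with 0.19 to 0.37 FPKM in LL, 3.67 to 14.7 in DP, against 2.5 to 4.22 in LG, as did CMTM3 (2.59, SE 0.11, adjusted p = 3.24e-07). DPP4, a peptidase that trims chemokines such as CXCL10 and CXCL12, had 14.8, 19.7 and 14.7 FPKM in LL, 3.42, 5.34 and 2.27 in DP, with 2.73, 2.68 and 2.67 in LG. It fell in DP against LL (-3.16, SE 0.22, adjusted p = 5.59e-06) and in LG against LL (-3.27, SE 0.22, adjusted p = 6.26e-06). PIK3CD, a phosphoinositide kinase subunit of leukocytes, was 3.42 to 12.1 FPKM in LL and DP and 112 to 124 in LG, a rise of 4.28 in LG against DP (SE 0.30, adjusted p = 2.97e-05). Of 6 markers carried by all leukocytes, 4 were called lower and 0 higher in that comparison. Which cells carry the PIK3CD transcripts was not tested.

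Besides the clusters on chromosomes 2, 6 and 8 already described, CCL22, CX3CL1 and CCL17 lie within 62.9 kb on chromosome 18. Of these, CCL22 and CCL17 were not tested, and CX3CL1 is among the genes near the shared amounts. Neighbouring chemokine genes on chromosomes 19, 22 and 25 are not described as clusters here. No member's values followed those of a neighbouring gene to within 1% over the 9 libraries, among 390 pairs compared. The table names no genome build.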

How the data were processed

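Libraries were made from total RNA with a TruSeq RNA kit, 1 per goat, and frozen tissue was the source, per the labels. The submitters' processing notes name FastQC, Trimmomatic, HISAT2, SAMtools and HTSeq, with no versions. The study's methods give FPKM from StringTie, and the step to 1 value per gene is not given in the sources used here. The deposited table holds 9 columns for 23499 genes and names no unit, and its values, which have 2 decimals and unequal library totals, were read as FPKM computed by the authors. The table names no build. By identifier, symbol and position, all 42 genes were found in RefSeq's ARS1.2 gene list. FPKM keep no read counts, so no count test and no counting interval were possible.

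Median-ratio factors came from 15905 genes, and the test ran on log2(FPKM / factor + 1). A gene was tested if 3 or more libraries had 0.5 FPKM or more, which 14701 genes did. R 4.3.3 and limma 3.58.1 were used (functions lmFit, contrasts.fit and eBayes, the last with trend), with all 9 libraries and no covariates, and p was adjusted over all of them by the Benjamini-Hochberg method. All adjusted p-values are from this fit or, where an alternative or a left-out library is named, from the same fit under that setting. The p-values rest on the spread between goats within stages, pooled per gene over all 3 stages (3 goats each) and moderated toward a trend over all genes. Each gene therefore has the same SE in the 3 comparisons, which also draws on the stage not compared. The fit was tested on simulated data. Figures were drawn in Python 3.11.15 with matplotlib 3.10.9.

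Values in every library are given for genes called in at least 1 comparison and for CCL5 and CXCL10. CCL2 was not analysed here. One receptor gene and one marker gene are included in the counts, sums and fits but not reported here. Of the signalling list at most 2 genes in each direction per comparison are named. The chemokine genes and the lists of markers and signalling genes were chosen with earlier results of these data known, and no test was run on a list or on a sum. Correlations of deviations between same-numbered libraries of different stages ran from -0.106 to 0.201 over 9 pairs, 3 of them above 0.1. Those between differently numbered libraries ran from -0.223 to 0.072, so the highest values were of same-numbered pairs. The stages are different goats, and replicate numbers were not treated as pairs in the main fit. What same-numbered libraries share was not tested. Alternatives covered the scaling, the pseudocount, the filter, the libraries in the fit, a replicate block, the rule for calls, each library left out and, added after the data were seen, the subtraction of shared amounts.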

Additional observations from a re-analysis of the deposited data

How the results depend on the processing

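Of the 32 calls of chemokine genes, 14 held in every alternative in which the gene was tested. These were ACKR1, CXCL9, CXCL10, CXCL14, CXCR6 and CXCL17 in DP against LL, CXCL8, CXCL10, CXCL17, CXCR1 and CXCR6 in LG against LL, and ACKR1, ACKR3 and CCL19 in LG against DP. Without scaling, 18 genes were called higher and 1 lower in DP against LL, 6 higher and 3 lower in LG against LL, and CCL26 turned from -0.06 to 1.14 in DP against LL. By construction this leaves in the shift of all genes. With no filter on low values, and with only the 2 stages compared in the fit, 0 genes were called higher in LG against DP, since CXCL10 had an adjusted p of 0.0518 and 0.0542. By the adjusted p alone, 3 were higher and 11 lower in LG against LL, where 50.2% of all tested genes passed in either direction. Leaving out each library gave 5 to 9 genes higher and 1 to 4 lower in DP against LL, 2 to 4 higher and 4 to 7 lower in LG against LL, and 0 to 2 higher and 3 to 8 lower in LG against DP. The shares of all tested genes with a library left out are not given here, so these counts have no background beside them. The largest losses were without LL1 (1 lower in DP against LL), LL2 (5 higher) and DP1 (3 lower in LG against DP). The cause was not tested.

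The replicate block, though the numbers do not pair the goats, ended the call of CXCL8 in DP against LL (adjusted p = 0.0537), leaving 3 lower, and added CXCR4 in LG against LL, giving 4 higher (adjusted p = 0.0302). It changed no other call. Without scaling the summed ligand level was 63.7 in LL and 213 in DP, the receptor sum 15.3 and 66.0, and the atypical receptor sum 3.47 in LL. Without the gene with the highest level, the ligand sum was 103 in LL and 100.4 in DP. The receptor sum was then 21.4 in LL, 25.2 in DP and 13.4 in LG, which places LG below LL. It includes CCR4, CCR7, CCR9 and XCR1, whose values lie near the shared amounts. Their scaled means were 2.46 to 2.62 in LL and 1.15 to 1.46 in LG, so this order rests partly on them. The atypical receptor sum was 4.02 in LL and 12.1 in DP, with DP1 (3.90) within the LL range. With 3 goats per stage and an unknown depth, changes of genes near 0 FPKM are the least certain.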
